A study of Equus caballus with 18 samples.

Results

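The most abundant genes of the muscle transcriptome of a Jeju horse are described here, that is the 10 of 25239 genes with the highest mean share of the counts of a library. A share is the count of a gene divided by all counts on genes of that library, averaged over 18 muscles. The genes MYH1 and MYH7, which encode a fast and the slow myosin heavy chain, and the genes drawn in the heatmap of the study were left out by rule, which removed MYH7, MYH1 and ALDOA, at ranks 8, 10 and 12 of all genes. The members were chosen by these shares, which are therefore given as a description and without a test. The counts list genes by Ensembl identifier, and the tables used here gave no name to any of the 10 members. Their functions are therefore not stated.

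All libraries came from 1 male Jeju horse, a small breed of Jeju Island, as total RNA with ribosomal RNA removed and 1 library per muscle. By the names of the muscles, 10 belonged to the forequarter, 7 to the hindquarter and 1 to the back. The forequarter muscles were triceps brachii (long head), biceps brachii, infraspinatus, supraspinatus, rhomboideus, omohyoideus, trapezius, extensor digitorum communis, extensor carpi radialis and pectoralis major. Semitendinosus, gluteus superficialis, the vertebral, middle and caudal parts of biceps femoris, extensor digitorum longus and extensor digitorum lateralis were the hindquarter muscles, and longissimus thoracis and lumborum was the muscle of the back. The muscle labelled pectoralis major is called pectoralis ascendens in a drawing of the study. Muscles of 1 animal are not independent animals, the 3 parts of biceps femoris are 1 muscle, and every p-value measures only the spread between muscles of this horse. The tissue could be checked only by genes that the heatmap names, among them MYH1 and MYH7, which had counts in every library. In such bulk samples, fewer cells of a type and less RNA per cell cannot be told apart.

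Skeletal muscle makes a small set of proteins in very large amounts, chiefly those of the contractile filaments, of energy supply and of the mitochondria, and a few transcripts can therefore fill most of an RNA library. Because a library holds a limited number of reads, a share is a composition: when 1 abundant gene takes more reads, the shares of other genes fall even if their transcripts do not. Normalization such as the trimmed mean of M-values (TMM), which scales libraries so that most genes do not change, was devised for this problem. The study asked how 18 muscles of similar function differ in expression.

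Together, the 10 members took between 57.5% of the counts in the vertebral part of biceps femoris and 71.7% in pectoralis major. Total counts on genes ranged from 31395013 in omohyoideus to 50508515 in pectoralis major. At this depth counting error was small: the lowest share of any member, 0.322% of ENSECAG00000027671 in extensor digitorum lateralis, had an exact 95% binomial interval from 0.320% to 0.323%. Such intervals cover counting error only, since several reads can stem from 1 molecule where no molecular identifier was used. Shares are of counted reads and not per gene length, so they do not give the order of transcript numbers between genes.

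Of all genes, ENSECAG00000027699 had the highest share, 28.9% ± 5.16 (SD, n = 18 muscles). It took 33.9% of the counts in triceps brachii, 28.0% in biceps brachii, 29.8% in infraspinatus, 25.3% in supraspinatus, 24.1% in rhomboideus, 23.7% in omohyoideus, 26.2% in trapezius, 21.3% in extensor digitorum communis, 31.4% in extensor carpi radialis and 37.1% in pectoralis major. In the hindquarter it took 24.6% in semitendinosus, 31.6% in gluteus superficialis, 32.9%, 39.1% and 27.1% in the vertebral, middle and caudal parts of biceps femoris, 32.1% in extensor digitorum longus and 21.2% in extensor digitorum lateralis, and in longissimus of the back 31.4%. The digital extensors communis and lateralis were lowest, whereas the middle part of biceps femoris and pectoralis major were highest, and both regions covered nearly the same range.

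The share of ENSECAG00000012544 was second, at 21.9% ± 6.11 (SD, n = 18). It took 18.7% of the counts in triceps brachii, 22.6% in biceps brachii, 24.4% in infraspinatus, 22.6% in supraspinatus, 22.0% in rhomboideus, 25.7% in omohyoideus, 24.8% in trapezius, 30.1% in extensor digitorum communis, 25.5% in extensor carpi radialis and 20.0% in pectoralis major. The hindquarter shares were 23.6% in semitendinosus, 12.8% in gluteus superficialis, 10.3%, 17.3% and 22.3% in the vertebral, middle and caudal parts of biceps femoris, 22.2% in extensor digitorum longus and 36.0% in extensor digitorum lateralis, and longissimus had 13.5%. Forequarter muscles lay within 18.7% to 30.1%, and the hindquarter held both the lowest and the highest value. The 3 parts of biceps femoris alone differed from 10.3% to 22.3%.

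**Figure D1:**
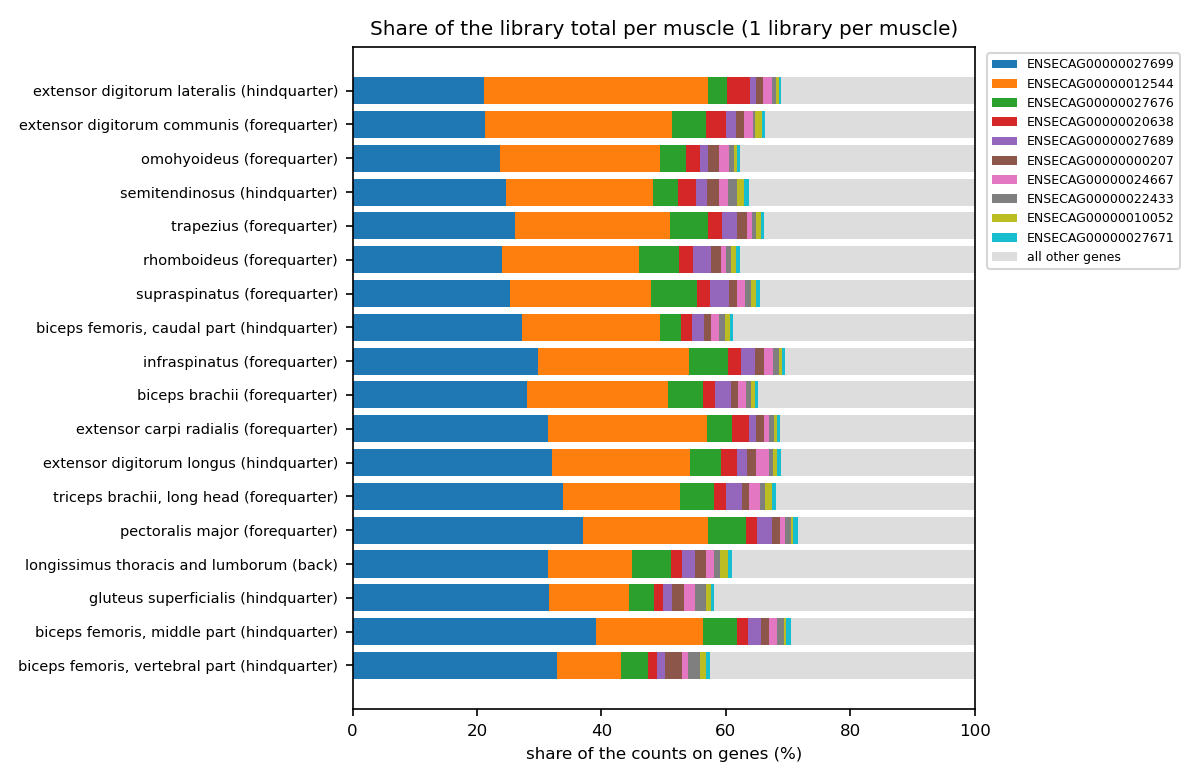
Share of the library total (x axis, %) taken by each of the 10 members (colours) and by all other genes (grey) in 18 muscles (y axis, region in brackets), with 1 library per muscle, ordered by the difference between ENSECAG00000012544 and ENSECAG00000027699. The 2 largest genes hold between 43.2% and 57.2% of the counts, and their order changes in the 3 muscles at the top.

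The other 8 members together took 11.6% of the counts in the caudal part of biceps femoris to 17.6% in supraspinatus. ENSECAG00000027676 had 5.13% ± 1.20 (SD, n = 18), from 2.99% in extensor digitorum lateralis to 7.43% in supraspinatus, with a median of 5.86% in the forequarter and 4.03% in the hindquarter. ENSECAG00000020638 had 2.23% ± 0.588, from 1.44% in gluteus superficialis to 3.69% in extensor digitorum lateralis. ENSECAG00000027689 had 1.97% ± 0.597, from 0.928% in extensor digitorum lateralis to 3.03% in supraspinatus. Extensor digitorum lateralis was thus the muscle of highest share for ENSECAG00000012544 and ENSECAG00000020638, and of lowest share for ENSECAG00000027699, ENSECAG00000027676, ENSECAG00000027689 and ENSECAG00000027671.

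ENSECAG00000000207 took 1.52% ± 0.402 of the counts (SD, n = 18), from 1.12% in biceps brachii to 2.71% in the vertebral part of biceps femoris. ENSECAG00000022433 was also highest in that part of biceps femoris, with 1.97%, and lowest in extensor digitorum communis, with 0.438%, around a mean of 0.980% ± 0.395. ENSECAG00000024667 took 1.29% ± 0.382, from 0.704% in trapezius to 2.08% in extensor digitorum longus. These 3 genes did not share their lowest muscle.

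ENSECAG00000010052 had 0.745% ± 0.280 (SD, n = 18), from 0.366% in the middle part of biceps femoris to 1.28% in longissimus. The last member, ENSECAG00000027671, had 0.596% ± 0.133, from 0.322% in extensor digitorum lateralis to 0.810% in pectoralis major. Just outside the 10 lay ENSECAG00000002596 with a mean share of 0.525%, ranging from 0.256% to 1.27% across muscles. MYH7 averaged 1.04% and MYH1 0.777%, but their shares moved far more between muscles, 37.2-fold for MYH7 and 168-fold for MYH1, against 1.84-fold to 4.50-fold for the members. Because myosin heavy chain genes resemble one another in sequence, counting may have divided reads of MYH1 and MYH7 among genes of this family. This was not tested, which leaves the shares of MYH1 and MYH7 uncertain.

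In shares, the 2 largest genes traded places. ENSECAG00000027699 was the larger of them in 15 of 18 muscles, and ENSECAG00000012544 in omohyoideus, extensor digitorum communis and extensor digitorum lateralis. The ratio of ENSECAG00000027699 to ENSECAG00000012544 was 0.589 in extensor digitorum lateralis, 0.707 in extensor digitorum communis and 0.924 in omohyoideus, and at the other end 2.26 in the middle part of biceps femoris, 2.33 in longissimus, 2.46 in gluteus superficialis and 3.20 in the vertebral part of biceps femoris. The ratio thus spanned 5.43-fold, and 11 muscles lay between 1 and 2 with semitendinosus the lowest of them at 1.04 and pectoralis major the highest at 1.85. A ratio of 2 genes in 1 library does not depend on its total or on normalization.

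Of the 153 pairs of muscles, 118 had one of these genes higher and the other lower by share, and Pearson's r between the 2 shares was -0.69 over 18 muscles. Both shares are parts of 1 total and together took 43.2% to 57.2% of it, and all muscles came from 1 horse, so r is a description. On the scale of log2 TMM-scaled CPM (counts per 1000000 counts of the scaled library), r was 0.15 and Spearman's rho 0.22, and 64 of the 153 pairs were opposite. Relative to the counts outside the members, MYH1 and MYH7, r was 0.05. The negative r was seen in the shares and not on the other 2 scales. On those 2 scales both genes of a muscle are divided by 1 common value, which can raise r. None of these scales is thus neutral.

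After TMM, ENSECAG00000027699 ranged from 167156 CPM in omohyoideus over a median of 272236 CPM to 448990 CPM in the middle part of biceps femoris. ENSECAG00000012544 ranged from 88356 CPM in the vertebral part of biceps femoris over a median of 225064 CPM to 432533 CPM in extensor digitorum lateralis. The muscle lowest in ENSECAG00000027699 was extensor digitorum lateralis by share and omohyoideus after TMM, whereas the extremes of ENSECAG00000012544 were the same muscles on both scales.

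**Figure D2:**
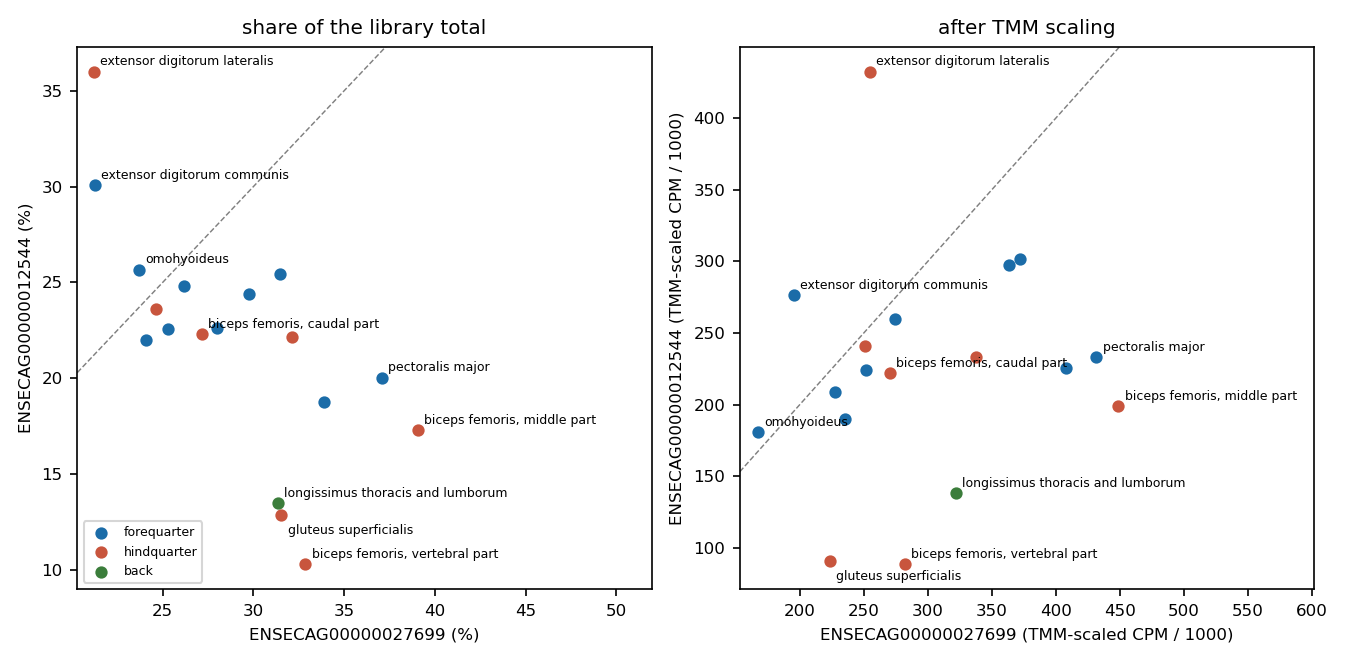
ENSECAG00000012544 (y axis) against ENSECAG00000027699 (x axis) in 18 muscles (1 point per library, coloured by region), as share of the library total (left, %) and as TMM-scaled CPM divided by 1000 (right). The dashed line marks equal values, and the falling pattern of the left panel (r = -0.69) is not seen in the right one (r = 0.15 for log2 values).

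Other members moved together. ENSECAG00000012544 and ENSECAG00000020638 had r = 0.92 (rho = 0.94) over 18 muscles after TMM, 0.88 as shares and 0.92 relative to the counts outside the members, MYH1 and MYH7. Their ratio stayed between 7.02 in the vertebral part and 11.9 in the caudal part of biceps femoris, and the SD of its log2 was 0.22, the smallest of all 45 pairs of members. Without the 2 muscles farthest from the median, r was 0.87.

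ENSECAG00000027676 and ENSECAG00000027689 also kept close, with r = 0.90 (rho = 0.90) and a ratio from 1.84 in the caudal part of biceps femoris to 3.37 in extensor carpi radialis. ENSECAG00000027671 followed both of them after TMM, with r = 0.72 and 0.74, and followed ENSECAG00000027699 with r = 0.80. As shares these values were 0.43, 0.53 and 0.59, and after TMM without the 2 muscles farthest from the median 0.56, 0.59 and 0.71. Its r with MT-ND4L, a subunit of complex I encoded by the mitochondrial genome, was 0.87, and the r of ENSECAG00000027676 and ENSECAG00000027689 with the same gene was 0.85 and 0.81. That of ENSECAG00000027699 was 0.58. MT-ND4L was chosen after these values were seen. Over the 10 oxidative phosphorylation genes of the heatmap, r ranged from 0.40 to 0.87 for ENSECAG00000027671. The range was 0.01 to 0.85 for ENSECAG00000027676 and 0.04 to 0.81 for ENSECAG00000027689.

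ENSECAG00000012544 and ENSECAG00000022433 were the pair whose ratio varied most, 13.2-fold between extensor digitorum communis and the vertebral part of biceps femoris, with an SD of 0.93 on the log2 scale. Their r was -0.42 after TMM, -0.77 as shares and -0.63 relative to the counts outside the members, MYH1 and MYH7. After TMM without the 2 muscles farthest from the median it was -0.11. ENSECAG00000000207 and ENSECAG00000022433 had r = 0.63. Across the 45 pairs the median r after TMM was 0.22, with 9 pairs above 0.5 and 0 below -0.5. Relative to the counts outside the 12 genes (the members, MYH1 and MYH7) the median was 0.07, with 6 pairs above 0.5 and 2 below -0.5, and as shares it was -0.04, with 5 above 0.5 and 5 below -0.5. These pairs share libraries and factors, and the number of negative pairs thus depended on the scale.

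The heatmap names genes in lists of 10 for fast twitch, slow twitch, glycolysis and oxidative phosphorylation (OXPHOS). The study took the twitch lists from the literature. Its glycolysis and OXPHOS lists hold genes that it found to differ between groups of these same libraries. They are thus no outside reference for the members, and r with them is a description. The median r over the genes of a list is given for 18 muscles after TMM. ENSECAG00000022433 had 0.86 with the OXPHOS genes, 0.77 with glycolysis, 0.73 with fast twitch and -0.44 with slow twitch. Single genes went the other way, as its r ranged from -0.46 to 0.86 in glycolysis and from -0.36 to 0.93 in fast twitch. Among 1712 genes outside the members with a mean of at least 1000 counts, its highest r were those with NDUFS8 (0.95), MYOZ1 (0.93) and NDUFA8 (0.93), of which NDUFS8 and NDUFA8 encode complex I subunits and MYOZ1 a protein of the Z-disc of fast fibres.

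ENSECAG00000012544 had the opposite signs, 0.38 with the slow twitch list, in which r was positive for 10 of 10 genes against 62.1% of the 1712 genes, -0.30 with fast twitch, -0.33 with glycolysis and -0.46 with OXPHOS. Single genes of ENSECAG00000012544 ranged from -0.46 to 0.46 in fast twitch, -0.49 to 0.26 in glycolysis and -0.71 to 0.20 in OXPHOS. ENSECAG00000020638 had 0.30 with slow twitch and -0.30 with OXPHOS. By Spearman's rho, the medians of ENSECAG00000012544 were nearer to 0, at 0.32 with slow twitch, -0.15 with fast twitch, -0.20 with glycolysis and -0.28 with OXPHOS, and those of ENSECAG00000020638 were 0.26 with slow twitch and -0.21 with OXPHOS. ENSECAG00000027699, ENSECAG00000000207 and ENSECAG00000027671 had 0.56, 0.60 and 0.60 with the OXPHOS list, in which r was positive for 10 of 10 genes for each of them, against 72.2%, 62.0% and 65.4% of the 1712 genes. It was also positive for 10 of 10 OXPHOS genes for ENSECAG00000022433, ENSECAG00000027676, ENSECAG00000027689 and ENSECAG00000010052, against 55.0%, 64.7%, 61.4% and 63.8%. The count was 1 of 10 for ENSECAG00000012544 and for ENSECAG00000020638, and 4 of 10 for ENSECAG00000024667, against 62.1%, 63.7% and 62.2%. The 1712 genes had a mean of at least 1000 counts, while genes of the lists were taken at any level. Genes of a list can also vary together, so these counts are a description. Weaker values were found for ENSECAG00000027676, with 0.21 for slow twitch and 0.30 for OXPHOS, and for ENSECAG00000027689, with 0.16 and 0.33. The highest value of ENSECAG00000024667 was 0.28 with fast twitch, or 0.17 relative to the counts outside the 12 genes. With OXPHOS it had -0.03. ENSECAG00000010052 reached 0.30 with OXPHOS. Relative to the counts outside the 12 genes, the medians with OXPHOS were 0.09 for ENSECAG00000010052, 0.17 for ENSECAG00000027676, 0.22 for ENSECAG00000027689, 0.44 for ENSECAG00000027699, 0.49 for ENSECAG00000000207 and 0.51 for ENSECAG00000027671. On that scale they were -0.57 for ENSECAG00000020638, -0.64 for ENSECAG00000012544, -0.14 for ENSECAG00000024667 and 0.81 for ENSECAG00000022433. The medians with OXPHOS were thus lower on that scale than after TMM for each of the 10 members.

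**Figure D3:**
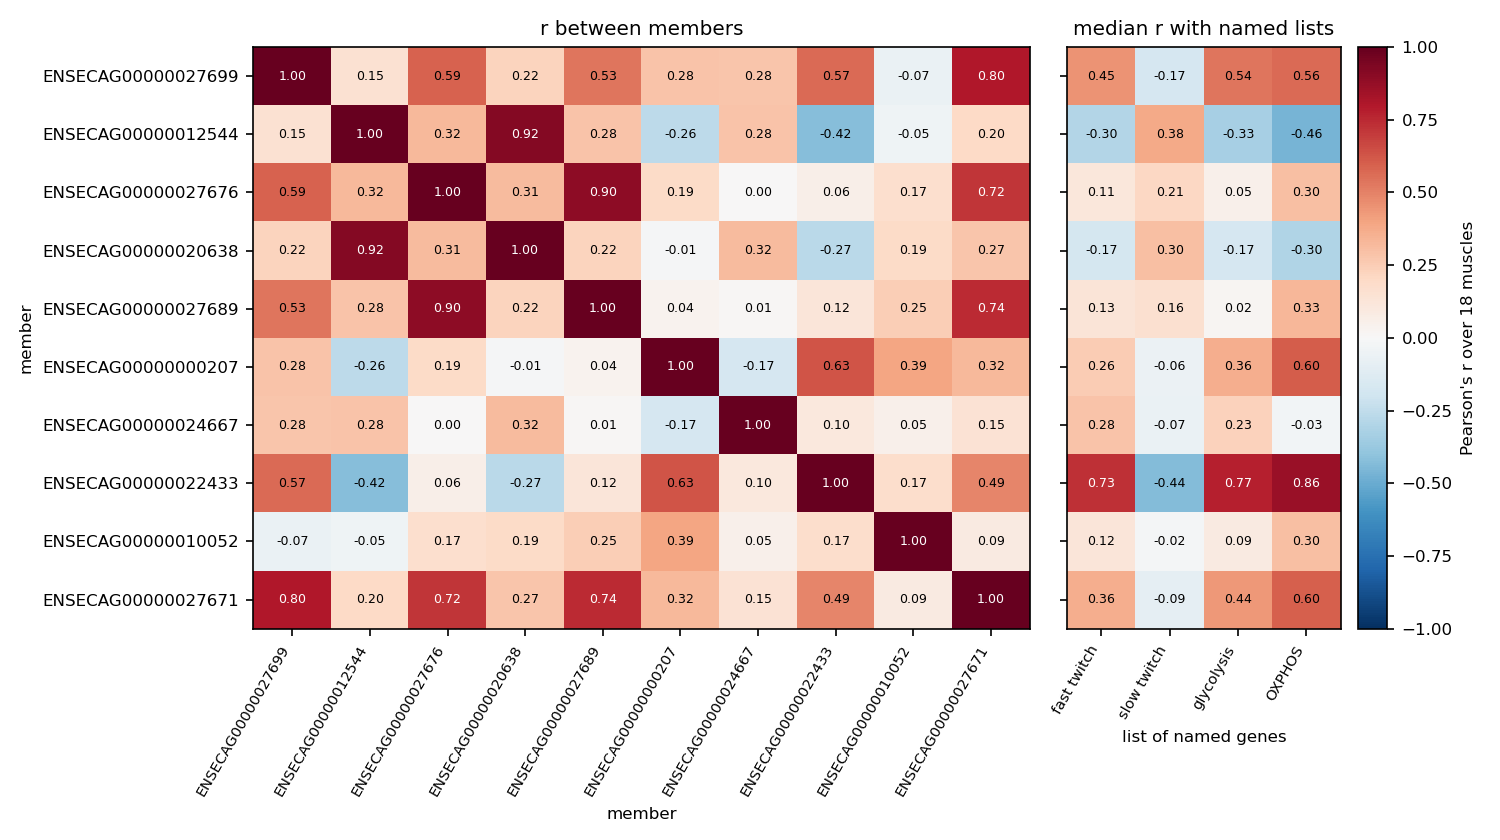
Pearson's r over 18 muscles of log2 TMM-scaled CPM, between the 10 members (left) and as the median over the 10 genes of each of 4 lists named in the heatmap of the study (right), with blue for negative and red for positive values. The highest value between members is 0.92, for ENSECAG00000012544 and ENSECAG00000020638, and the highest with a list is 0.86, for ENSECAG00000022433 and OXPHOS.

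The genes outside the members that followed ENSECAG00000027699 most closely were ENSECAG00000015321 (r = 0.88) and ENSECAG00000011122 (r = 0.87). The lowest r were those of ENSECAG00000016219 (-0.63) and ENSECAG00000023231 (-0.57). These came from the same 1712 genes, of which 72.2% had a positive r with ENSECAG00000027699.

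The members were then compared between forequarter (n = 10) and hindquarter (n = 7), a contrast that the choice of members did not use. With edgeR's quasi-likelihood test, 0 of the 10 members were DEGs (adjusted p below 0.05 and absolute log2FC above 0.58), against 5 of 12978 genes tested, or 0.0385%. At an unadjusted p below 0.05 there were 0 members and 2035 genes, or 15.7%, and with DESeq2 there were 3 members and 2170 genes, or 16.7%. DESeq2 called 0 members and 146 genes, or 1.12%, after adjustment. With edgeR on library totals alone, 2 members and 10.6% of all genes had an unadjusted p below 0.05, and on totals outside the 12 genes (the members, MYH1 and MYH7) 2 members and 16.1%, with 0 members called by either. When each of 17 muscles was left out in turn, 2 members were below it without omohyoideus (16.2% of all genes). There were 2 without the middle part of biceps femoris (16.1%), 1 in 4 of the fits and 0 in 11. The share of all genes in these fits ran from 10.6% without the vertebral part of biceps femoris to 20.3% without extensor carpi radialis. The count of 5 DEGs was 29 without the caudal part of biceps femoris, 2 without gluteus superficialis, 3 without rhomboideus and 3 without omohyoideus, with 0 members among them each time. The median log2FC of the members was -0.02, with 4 of 10 higher in the forequarter, and that of all genes was 0.00. All 10 members passed the filter on low counts.

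With edgeR's quasi-likelihood test after TMM, ENSECAG00000027676 had the lowest unadjusted p among members, 0.0592, close to 0.0598 for ENSECAG00000022433. With edgeR on library totals alone their order turned, with adjusted p of 0.391 and 0.331. ENSECAG00000027676 ranged from 29934 CPM over a median of 62191 CPM to 76171 CPM in the forequarter, and from 28541 CPM over 36929 CPM to 61429 CPM in the hindquarter. The groups overlapped over most of their range. Its log2FC was 0.51 (SE 0.25), with an adjusted p of 0.339 in edgeR.

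ENSECAG00000027689, with medians of 26149 CPM in the forequarter and 17789 CPM in the hindquarter, had a log2FC of 0.51 (SE 0.28) and an adjusted p of 0.380 in edgeR. ENSECAG00000022433 was at a median of 8148 CPM in the forequarter, from 4029 to 11482 CPM, and of 12559 CPM in the hindquarter, from 7167 to 16962 CPM. Its log2FC was -0.51 (SE 0.25), with an adjusted p of 0.340 in edgeR. None of these 3 differences passed the threshold on the adjusted p in edgeR or DESeq2.

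ENSECAG00000024667 had a log2FC of -0.32 (SE 0.26), ENSECAG00000000207 -0.17 (SE 0.20) and ENSECAG00000012544 0.15 (SE 0.33). That of ENSECAG00000012544 was 0.42 without extensor digitorum lateralis, 0.02 without gluteus superficialis and 0.02 without the vertebral part of biceps femoris. That of ENSECAG00000000207 was -0.04 without the vertebral part of biceps femoris and -0.11 without biceps brachii, and that of ENSECAG00000024667 was -0.19 without extensor digitorum longus. With biceps femoris summed as 1 muscle, ENSECAG00000012544 had 0.04, and with totals outside the 12 genes it had 0.26 and ENSECAG00000000207 -0.09. These differences thus depended on single muscles and on the processing in size, though not in sign. ENSECAG00000010052 and ENSECAG00000027671 had -0.07 (SE 0.27) and 0.07 (SE 0.25), and ENSECAG00000020638 and ENSECAG00000027699 had -0.02 (SE 0.28) and -0.02 (SE 0.30). The share of ENSECAG00000027699 averaged 28.1% in the forequarter and 29.8% in the hindquarter. This difference of -1.72 percentage points is given without a test, and it was between -3.16 points without extensor digitorum lateralis and -0.18 points without the middle part of biceps femoris when 1 muscle was left out.

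**Figure D4:**
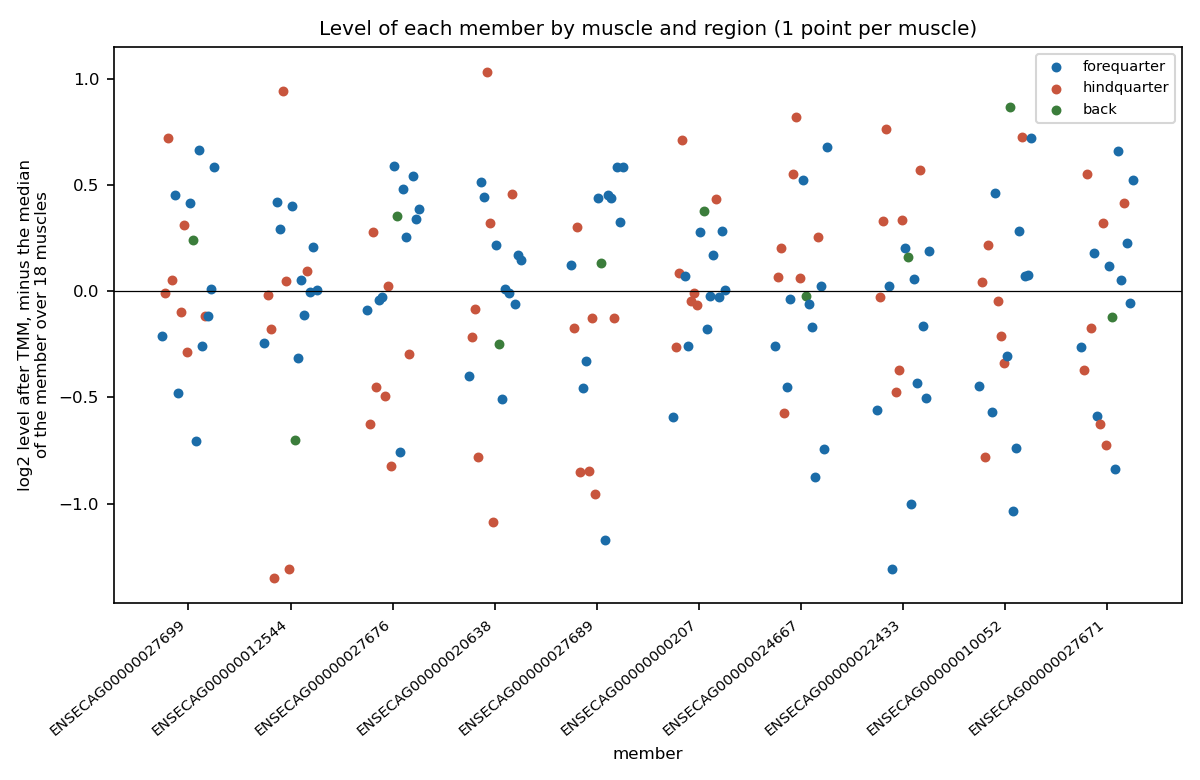
Log2 TMM-scaled level of each member (x axis) in each muscle, minus the median of that member over 18 muscles (y axis, log2 units), with 1 point per library coloured by region. Forequarter and hindquarter points overlap for every member, and the lowest points of ENSECAG00000012544 are hindquarter muscles.

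Most of the variance of raw counts came from the members. Summed over all genes, 98.3% of the variance between muscles in raw counts lay in the 10 members and 95.3% in the 2 largest. ENSECAG00000027699 held 48.1% and ENSECAG00000012544 47.2%. Of the variance in shares, 38.8% lay in ENSECAG00000027699 and 54.5% in ENSECAG00000012544, so their order depended on the scale. On the log2 scale after TMM, over 14205 genes, the members held 0.122% of the variance. The SD of their log2 level ranged from 0.30 for ENSECAG00000000207 to 0.57 for ENSECAG00000027689, and 9 of 10 were above the median SD of 0.34 of the 1722 genes with a mean of at least 1000 counts. Raw counts also carry the difference in library totals. Raw variance grows with abundance, by which the members were chosen, so the percentages of raw variance are a description.

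To describe normalization, factors were computed with and without the members. The share of counts left outside 12 genes (the 10 members, MYH1 and MYH7) ranged from 26.6% in pectoralis major to 40.9% in gluteus superficialis, which is 1.54-fold. The TMM factors ranged from 0.819 in infraspinatus to 1.42 in omohyoideus, which is 1.73-fold. The log2 factor and that share had r = 0.79 (rho = 0.79) over 18 muscles of 1 horse. Without the 2 muscles farthest from the median r was 0.71. A TMM factor is applied to the library total and so follows the part of it that most genes hold. Such a relation is thus in part built in, and r is a description. With the share of ENSECAG00000027699 or ENSECAG00000012544 alone, r was -0.28 for each. Without the 2 muscles farthest from the median these values were -0.11 and -0.05.

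When TMM was computed on a table without the 12 genes and put back on full totals, no factor moved by more than 0.02 on the log2 scale. TMM trims the genes highest in abundance before it averages, so such small moves were built into the method. They do not measure an effect of the members. The median of ratios of DESeq2 also stayed within 0.02 of TMM, and the upper quartile within 0.07. Scaling by the total outside the 12 genes was up to 0.34 away, in omohyoideus, where TMM gave 1.42 and that total 1.12. Leaving the 12 genes out of the total thus gave other factors than TMM.

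Scalings were also compared for the pair of muscles at the ends of the ratio of the 2 largest genes, a pair chosen by the members' own counts, and the part of the members in these differences was not tested. Between extensor digitorum lateralis and the vertebral part of biceps femoris, over 8197 genes with a mean of at least 100 counts, the median log2 difference was -0.46 when CPM used library totals alone, and only 24.7% of the genes were higher in extensor digitorum lateralis. It was 0.00 after TMM, with 49.8% of the genes higher, 0.02 after median of ratios, and -0.04 after both upper quartile and the total outside the 12 genes. Over all 18 muscles, the medians of these genes spanned 0.70 on the log2 scale by library totals, 0.44 by the total outside the 12 genes and 0.10 after TMM. A median near 0 is what TMM and median of ratios are built to give.

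**Figure D5:**
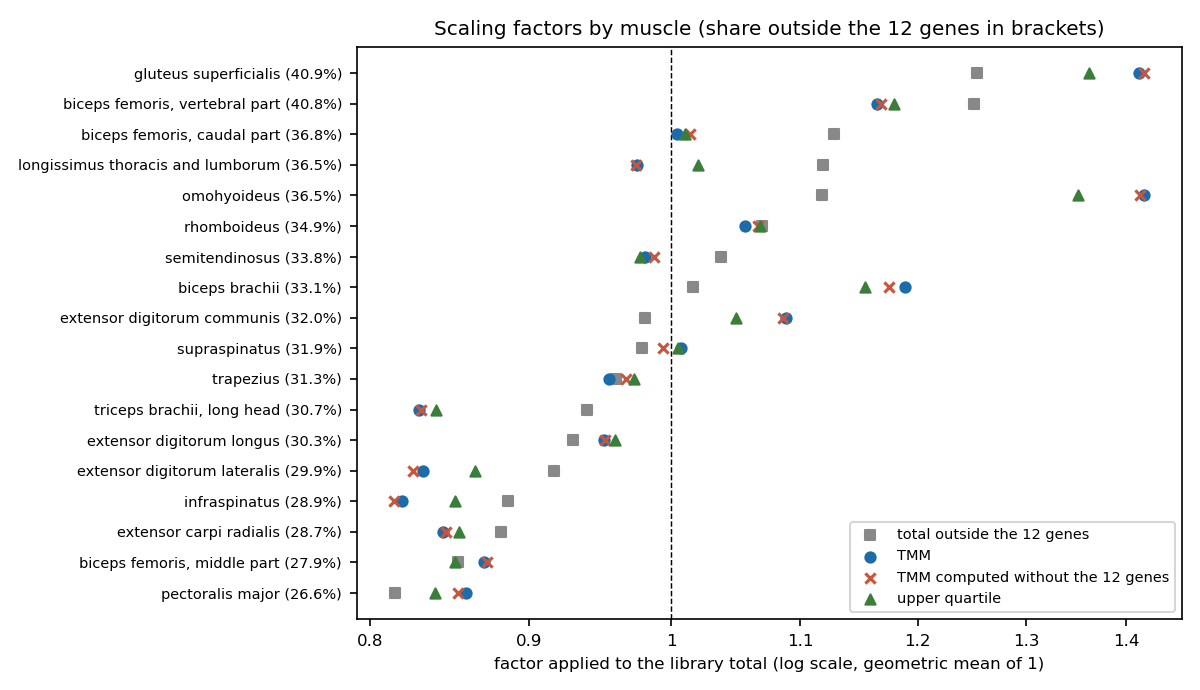
Factor applied to the library total (x axis, log scale, geometric mean of 1) by 4 methods (symbols) in 18 muscles (y axis), ordered by the share of counts outside the 12 genes, given in brackets in %. TMM with and without the 12 genes differ by at most 0.02 on the log2 scale, which the trimming of abundant genes builds in. Omohyoideus and gluteus superficialis have the highest TMM factors.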

How the data were processed

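RNA of 18 muscles of 1 horse was sequenced as paired reads of 101 bp on 1 library each. As the study describes, ribosomal RNA was depleted, trimming used NGSQCToolkit, and STAR 2.5.2b aligned the reads in 2 passes to EquCab2 with Ensembl annotation 87. The authors deposited raw counts of reads per gene, not normalized, for 25239 genes. The study states a larger number of genes, and all shares here refer to the total over the 25239 genes. No line lacked a gene and no column lacked a muscle. Strand and multimapping rules of the counting were not given in the sources used here.

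Shares were computed from the deposited counts with Python 3.11.15 (numpy 2.4.6, scipy 1.17.1, pandas 2.3.3), and figures with matplotlib 3.10.9. Forequarter and hindquarter were compared with edgeR 4.0.16 in R 4.3.3 (TMM, filterByExpr, glmQLFit, glmQLFTest, Benjamini-Hochberg over 12978 genes), with DESeq2 1.42.0 as an alternative. The code was tested on simulated data. The region was read from the name of the muscle. The groups of the study were formed from the same counts and were not used. Levels are log2(CPM + 0.5) on TMM totals for correlations, which are descriptions without p. A planned permutation test of the share of the top gene between regions is not used as a result, because shares chose the members. Factors were computed over 14205 genes.

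Of 52 genes of the heatmap, 51 were matched to 1 identifier each by the counts it shows for 2 muscles, and 1 had 2 matching identifiers, neither a member. Members and lists were chosen with earlier results of these data known. The named genes were the 10 members, the next gene in rank, MYH1, MYH7, the closest and most opposite genes to the top member (2 of 3 of each printed), and genes of the lists with a name. NDUFS8, MYOZ1, NDUFA8 and MT-ND4L were chosen after their values were seen. Of 120 genes in lists of pathways and markers of cell types, 0 had an identifier paired with a name, which left those lists untested. Alternatives were other scalings, filters, tools and samples, and leaving out each muscle.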

Additional observations from a re-analysis of the deposited data

How the results depend on the processing

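The 10 members stayed the same when ranked by median share, by TMM-scaled CPM or with any 1 muscle left out. A ranking per kilobase was not run, as no gene lengths were used here. No member was a DEG between forequarter and hindquarter under any alternative. The smallest adjusted p of a member was 0.0989, for ENSECAG00000027676 with DESeq2. Of all genes tested, 0.0385% were DEGs with edgeR and 1.12% with DESeq2, so 0 of 10 members lies near the share of all genes. The count of DEGs over all genes was 5, against 146 with DESeq2, which shared 2 of the 5, and 2 with at least 10 counts in every library. Summing biceps femoris as 1 muscle gave 5 DEGs, of which 3 were shared. The count was from 2 (without gluteus superficialis) to 29 (without the caudal part of biceps femoris) when 1 muscle was left out, with 3 without rhomboideus and 3 without omohyoideus. The cause was not tested.

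The sign of the log2FC changed only for 4 members, all near 0. With totals outside the 12 genes, which move the median of all genes by 0.09, it became 0.0363 for ENSECAG00000027699, 0.0727 for ENSECAG00000020638 and 0.0124 for ENSECAG00000010052. ENSECAG00000020638 gave 0.0057 with library totals alone and 0.0147 with longissimus counted in the hindquarter, and ENSECAG00000027699 gave 0.0695 with biceps femoris summed as 1 muscle. Leaving out 1 muscle gave -0.10 to 0.11 for ENSECAG00000027699, -0.15 to 0.21 for ENSECAG00000020638, -0.19 to 0.10 for ENSECAG00000010052 and -0.0208 to 0.184 for ENSECAG00000027671. The difference in the share of ENSECAG00000027699 ranged from -3.16 to -0.18 points when 1 muscle was left out.

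The r of ENSECAG00000027699 and ENSECAG00000012544 turned from 0.15 after TMM to -0.69 as shares. No paired analysis was possible because the replicate numbers follow the order of the samples and name different muscles. Technical error and the difference between muscles cannot be told apart with single libraries, and counting error was small for genes this abundant.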
